A study of Mus musculus with 8 samples.

Results

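The genes described here carry glucose from uptake to lactate, together with those of the pentose phosphate branch in the mouse hepatocyte line AML12. They were measured with and without Opti-ELF-WMF, an extremely low-frequency weak magnetic field. The 35 genes were taken by symbol from a list, and not by a cut on their measured values. That list was chosen with earlier results of these data known. The files held 36 entries for these symbols among 55401 gene entries, because Aldoa was listed under 2 gene identifiers. AML12 is an established, non-tumorigenic hepatocyte line, derived from a mouse transgenic for human transforming growth factor alpha. RNA was sequenced from 4 control dishes and 4 exposed dishes, all from 1 batch of cells grown to subconfluency in DMEM/F-12 with serum, dexamethasone, insulin, transferrin and selenium. The exposed dishes received trains of 4 ms pulses that swept between 1 and 8 Hz at a peak of 10 µT, for 1 h. The unexposed dishes stood in an incubator of their own, of like make, where no field was applied, so that the incubator and the field cannot be told apart. Because the dishes shared 1 batch of cells, p-values measure the spread between dishes of that batch.

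Glycolysis splits glucose into pyruvate in the cytosol. Its first enzymes spend ATP to phosphorylate the sugar, and the later ones return ATP and NADH. Pyruvate is either oxidised in mitochondria or reduced to lactate by lactate dehydrogenase, which restores NAD, and lactate crosses the plasma membrane through monocarboxylate transporters. The pentose phosphate branch leaves at glucose 6-phosphate. Its oxidative arm makes NADPH and its non-oxidative arm exchanges carbon between pentoses and glycolytic intermediates. The liver can run the pathway in both directions, and mature hepatocytes carry their own isoforms at several steps, among them the transporter GLUT2 (Slc2a2) and liver pyruvate kinase (Pklr).

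The values are TPM, which are scaled to gene length and to a sum of 1e+06 in every dish, so that levels can be compared between genes within a dish. Read counts were not given in the values, and the depth is unknown. The number of gene entries above 0 was 19386 to 20114 per dish. Pearson's r of log2(TPM + 1) over all entries was 0.996 to 0.997 within a condition and 0.996 to 0.998 across conditions. Most entries were at 0, which raises this r, so it cannot show whether a dish stood apart. The 37 genes of the mitochondrial genome took 8.69 to 9.42% of all TPM in the control dishes and 5.99 to 7.69% in the exposed dishes, and these ranges did not overlap. Since TPM sums to a constant, this difference is shared out over every other gene. The counts over all members at an unadjusted p below 0.05 or without overlap are therefore also given after scalings less exposed to it. Other counts are as deposited unless a scaling is named. Hepatocyte markers were present in part: Trf (transferrin) stood at 808 to 892 TPM and Hnf4a at 180 to 218 TPM, while Alb (albumin) was only 52.6 to 58.2 TPM in controls and 46.1 to 53.0 TPM after exposure and Cps1, Asgr1 and Fgb were at most 0.15 TPM in any dish. The difference for Alb was -0.15 on the log2(TPM + 1) scale (limma, adjusted p = 0.21), with an unadjusted p below 0.05 in all 18 fits. Apoe went the other way, with a difference of 0.15 (limma, adjusted p = 0.309) and an unadjusted p below 0.05 in 8 of the 18 fits. Of the 11 tested hepatocyte markers, 1 was higher and 1 was lower at that p (12% and 3.65% of all tested genes), and their median difference was 0.05. The epithelial keratins were high, at 2206 to 2280 TPM in controls and 2305 to 2431 TPM after exposure for Krt8 and 1825 to 1963 and 1992 to 2071 TPM for Krt18. Neither keratin overlapped between conditions as deposited (log2 differences 0.07 and 0.09, adjusted p = 0.194 and 0.166). Krt19 and Krt7 did overlap (0.02 and -0.06, limma adjusted p = 0.858 and 0.683), as did Sox9 and Cdh1. Epcam was at most 0.13 TPM in any dish. The part of these marker differences in the values of the members was not tested. The summed markers of fibroblasts (0.61 to 1.99 TPM control, 0.67 to 1.38 TPM exposed), leukocytes (1.60 to 2.55 and 1.63 to 1.95 TPM) and endothelium (0.01 to 0.09 and 0.03 to 0.09 TPM) were near 0. In bulk RNA of this kind, fewer cells of a type and less RNA per cell cannot be told apart.

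The glycolytic transcripts were far from even along the pathway. Summed over its isoforms, hexokinase was at 39.1 ± 1.05 TPM (SD, n = 4 control dishes), glucose transport at 70.9 ± 2.03 TPM and phosphofructokinase at 91.9 ± 1.00 TPM. Glucose phosphate isomerase (Gpi1), between these steps, was at 460 ± 14.9 TPM. From aldolase to lactate dehydrogenase every step was between 773 TPM, for triose phosphate isomerase (Tpi1), and 4371 ± 55.7 TPM, for Gapdh, the enzyme that makes NADH. Gapdh was 112 times the hexokinase sum. Pyruvate kinase, the last ATP-yielding step, followed at 2016 ± 24.3 TPM. Lactate export, at 38.2 ± 1.09 TPM, was again as low as hexokinase. Transport, hexokinase, phosphofructokinase and lactate export were thus the 4 lowest of the 13 sums in the control dishes. The 13 sums stood in the same order in the exposed dishes. They leave out the near-identical copies of Gapdh and Eno1 described below. With the copies added, Gapdh was at 6645 ± 74.4 TPM and Eno1 at 1609 ± 15.2 TPM in controls. That would put enolase above aldolase (1035 TPM) and lactate dehydrogenase (1079 TPM).

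**Figure D1:**
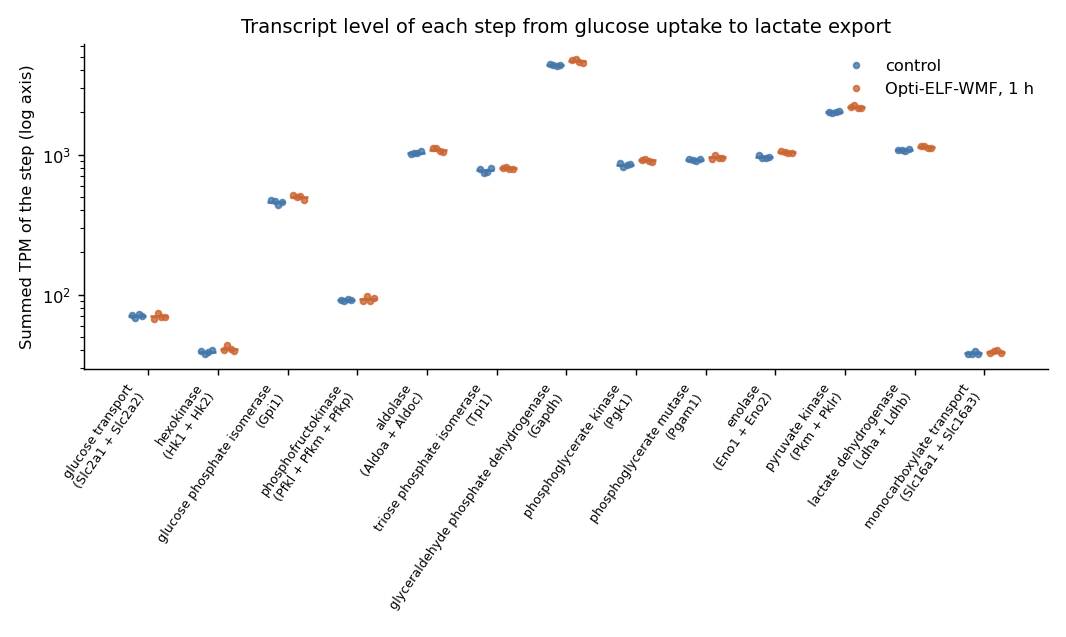
Summed TPM of each step from glucose uptake to lactate export on a log axis, with each dish as a point and the mean of 4 dishes as a line, controls in blue and exposed dishes in orange. Gapdh stands highest at 4371 TPM in controls and 4679 TPM in exposed dishes, and transport, hexokinase, phosphofructokinase and lactate export lie below 100 TPM. Near-identical copies of Gapdh and Eno1 are not included.

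Taken as a whole, the members made up 1.45, 1.43, 1.42 and 1.46% of all TPM in control dishes 1 to 4 and 1.54, 1.57, 1.51 and 1.50% in exposed dishes 1 to 4. The sum was 14380 ± 186 TPM in controls and 15287 ± 352 TPM after exposure. Every exposed dish was above every control dish. Exposed dish 2 had both the highest sum of members and the lowest share of mitochondrial-genome transcripts, 5.99%. That share was 6.96 to 7.69% in the other exposed dishes. The difference between the means, 907 TPM as deposited, was 651 TPM when the values were rescaled without the mitochondrial genome and 671 TPM with median-of-ratios scaling.

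Of the 36 entries, 34 passed the filter of TPM of at least 1 in at least 4 dishes and were tested with limma on log2(TPM + 1), with Benjamini-Hochberg adjustment over all 12122 tested genes. Ldhb was listed at 0 in every dish and Slc16a3 was at 0.15 to 0.58 TPM, so neither was tested. The lowest members that were tested were Eno2, Pfkfb4, the second Aldoa entry and Hk2, each at 1 to 3 TPM in every dish. No member was called at an adjusted p below 0.05, and no gene of the whole table was (0% of 12122, smallest adjusted p 0.0572). At an unadjusted p below 0.05, 9 of the 34 members were higher after exposure (all tested genes: 1451, or 12%) and 3 were lower (all tested genes: 443, or 3.65%). For 9 members every exposed dish was above every control dish (background 8.01%), and for 1 member every exposed dish was below (background 1.86%). As deposited, 28 of the 34 estimates were above 0, where 63.7% of all tested genes were. The median log2 difference, exposed minus control, was 0.05 over the members and 0.03 over all tested genes. It was 0.03 over the members with median-of-ratios scaling, 0.04 with upper-quartile scaling and 0.02 without the mitochondrial genome. Over all tested genes it was 0.005, 0.015 and -0.0018 in that order.

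The members that were higher were mostly the abundant ones, and abundant genes in general were higher in these libraries. Of the 269 tested genes at a mean of at least 500 TPM, a level chosen after the values were seen, 47.2% were higher at an unadjusted p below 0.05 and 7.43% were lower, and no adjusted p was below 0.05. Of those 269 genes, 85.5% had estimates above 0, 33.8% had every exposed dish above every control dish and 5.95% had every exposed dish below. All 9 members at that level had estimates above 0. Of these 9, 7 were separated upward and the same number were higher at an unadjusted p below 0.05, and their median log2 difference was 0.09 beside 0.06 over the 269 genes. The other 25 members had a median of 0.04, with 2 higher and 3 lower at that p as deposited. With median-of-ratios scaling, 22.3% of the abundant genes and 5 of the 9 abundant members were higher. With upper-quartile scaling these were 23.4% and 5. With TPM rescaled after leaving out the mitochondrial genome, 26.7% of the abundant genes and 6 of the 9 abundant members were higher. That scaling also moved the whole table: the higher genes made up 76.6% of those with an unadjusted p below 0.05 as deposited, 50.6% after that rescaling, 55.2% with median-of-ratios scaling and 63.3% with upper-quartile scaling. Over all 34 members, 7 were higher with median-of-ratios scaling (6.8% of all tested genes under that scaling), 7 with upper-quartile scaling (8.2%) and 8 without the mitochondrial genome (5.7%), at an unadjusted p below 0.05. The 3 lower members stood beside 5.51, 4.76 and 5.57% of all tested genes in that order, where the share as deposited was 3.65%. Every exposed dish was above every control dish for 6, 4 and 6 members in the same order of scalings (4.58, 5.47 and 3.8% of all tested genes), and below for 3 members under each (3.37, 2.78 and 3.26%).

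**Figure D2:**
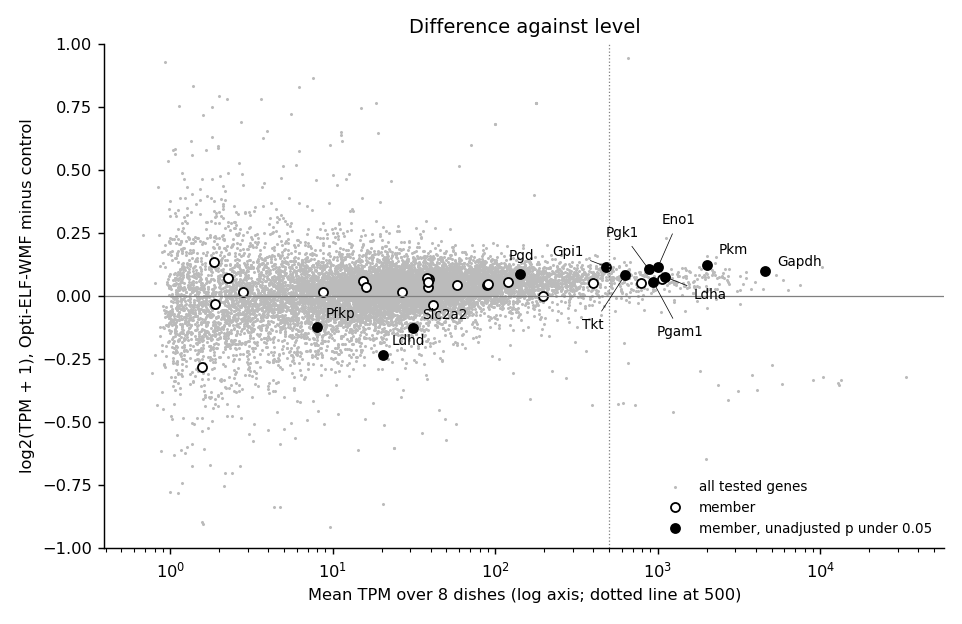
Difference in log2(TPM + 1), exposed minus control, against the mean TPM of each gene over 8 dishes on a log axis, with all tested genes in grey, members as circles and members with an unadjusted p under 0.05 filled. The vertical axis leaves out 18 tested genes with differences beyond 1, and the filled members above 0 lie mainly to the right of the dotted line at 500 TPM, while Ldhd, Slc2a2 and Pfkp lie below 0 at under 40 TPM.

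Glucose enters these cells through facilitative transporters of the GLUT family. Slc2a1, which encodes GLUT1, the widespread high-affinity transporter, was at 38.7, 36.9, 39.4 and 37.9 TPM in control dishes 1 to 4 and 38.0, 41.7, 40.7 and 40.2 TPM in exposed dishes 1 to 4. Slc2a2, which encodes GLUT2, the high-capacity transporter of hepatocytes and pancreatic beta cells, was at 33.2, 31.5, 33.6 and 32.3 TPM in the controls and 29.2, 32.1, 28.8 and 29.3 TPM after exposure. For Slc2a1, 3 exposed dishes were above all controls, and for Slc2a2, 3 exposed dishes were below all controls, with exposed dish 2 inside the control range. The log2 differences were 0.07 ± 0.037 (SE, limma, adjusted p = 0.427) for Slc2a1 and -0.13 ± 0.042 (unadjusted p = 0.0138, adjusted p = 0.194) for Slc2a2.

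The balance between both transporters varied less among the control dishes than either gene did. Slc2a1 made up 53.8, 54.0, 54.0 and 54.0% of the summed TPM of both genes in the controls and 56.6, 56.5, 58.6 and 57.9% in the exposed dishes. Every exposed dish lay above the controls. The mean share was 53.9% ± 0.10 (SD, n = 4) in controls and 57.4% ± 1.03 after exposure, a difference of 3.44 percentage points, and leaving out any 1 dish gave 3.04 to 3.73 points. The exact two-sided permutation test gave p = 0.0286, which is the smallest that 4 dishes against 4 can give. The value adjusted over the 9 families of isoforms was 0.257. A single family at that smallest p could not reach an adjusted p below 0.05, so the adjusted value cannot decide on this share. A share within a dish does not depend on how TPM is scaled between dishes.

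Phosphorylation by hexokinase traps glucose in the cell. Hk1, the housekeeping form, was at 37.1, 36.0, 36.5 and 37.9 TPM in controls and 37.9, 40.9, 39.0 and 37.4 TPM in exposed dishes, and the groups overlapped (log2 difference 0.07, unadjusted p = 0.0828). Hk2, the inducible form of muscle and many tumours, was at 1.82 to 2.72 TPM over all dishes, and its share of both forms was 5.58% and 5.68% (exact permutation p = 0.771). The next enzyme, the isomerase Gpi1, was at 472, 468, 439 and 462 TPM in controls and 514, 500, 506 and 477 TPM after exposure. Every exposed dish was above every control dish, by the least in exposed dish 4, and the log2 difference was 0.12 ± 0.032 (adjusted p = 0.142). Gpi1 had an unadjusted p below 0.05 in all 18 fits, but its dishes overlapped under each of the other 3 scalings.

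Phosphofructokinase commits the sugar to glycolysis. Its liver form Pfkl was the main one, at 57.7, 55.2, 58.3 and 57.2 TPM in controls and 55.8, 59.9, 57.5 and 62.3 TPM after exposure, with overlapping groups. The muscle form Pfkm was at 24.9 to 29.1 TPM over all dishes, and its estimate was 0.02 as deposited and -0.01 with median-of-ratios scaling. The platelet form Pfkp was at 8.21, 7.92, 8.62 and 8.64 TPM in controls and 7.39, 7.99, 7.32 and 7.66 TPM in exposed dishes. Of the exposed dishes, 3 were below all controls (log2 difference -0.12 ± 0.053, unadjusted p = 0.0448, adjusted p = 0.307). The unadjusted p of Pfkp was below 0.05 in 11 of the 18 fits and reached 0.111. Pfkl made up 62.1% ± 0.83 of the 3 forms in controls and 63.1% ± 1.85 after exposure (exact permutation p = 0.429). The bifunctional Pfkfb enzymes, which make and break fructose 2,6-bisphosphate, the activator of phosphofructokinase, held 4 members. Pfkfb2 was the most abundant, at 39.8, 40.6, 43.7 and 43.9 TPM in controls and 37.2, 43.7, 39.8 and 43.3 TPM after exposure. Pfkfb1 (the liver form), Pfkfb3 (the strongly kinase-biased form) and Pfkfb4 averaged 8.63, 14.9 and 1.74 TPM in controls, and no member of the family had an unadjusted p below 0.05. The family sum was 67.2 ± 3.44 TPM in controls and 67.3 ± 4.37 TPM after exposure.

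**Figure D3:**
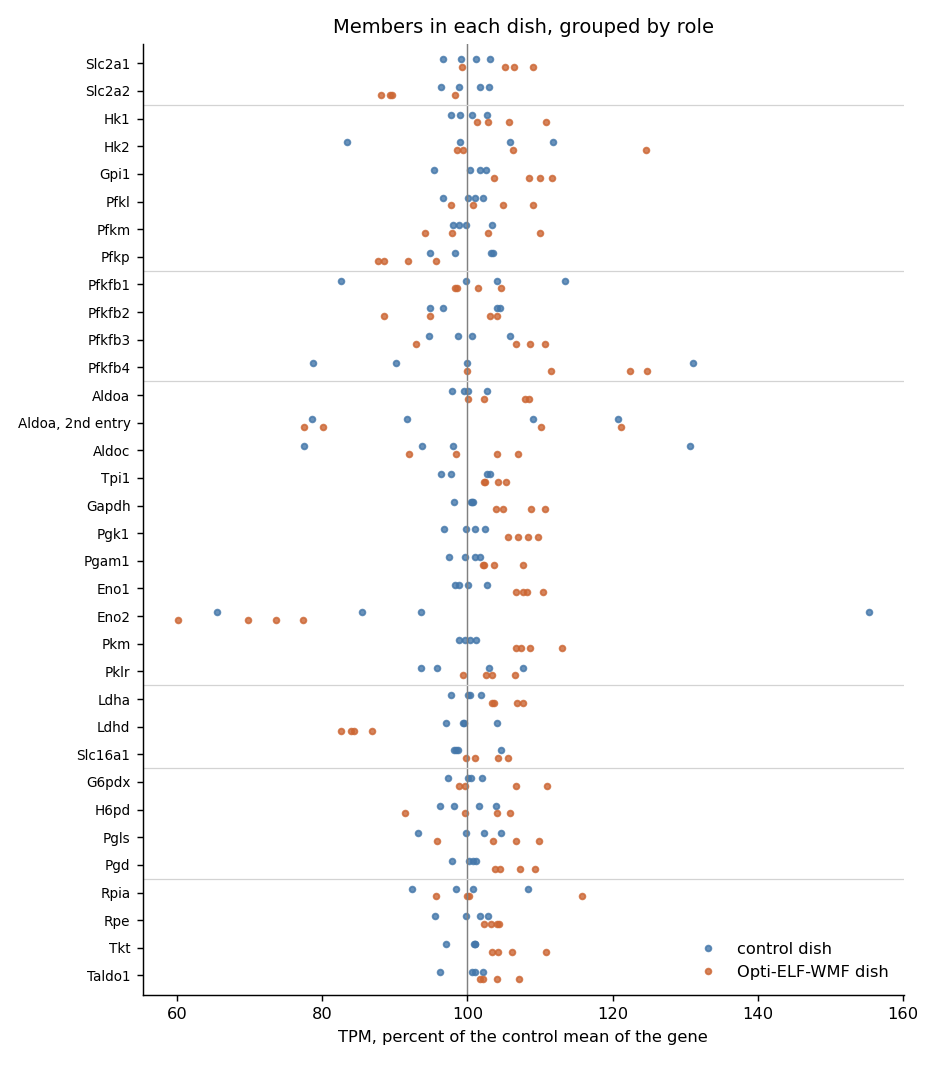
TPM of each of the 34 tested entries in every dish as a percent of the mean of the 4 control dishes of that gene, grouped by role from glucose uptake at the top to the non-oxidative pentose phosphate arm at the bottom, with controls in blue and exposed dishes in orange. All 4 exposed points lie to the right of all 4 control points for 9 genes from Gpi1 to Tkt, and to the left for Ldhd alone, while the widest scatter is that of Eno2.

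From fructose bisphosphate to pyruvate, 5 of 11 entries were higher as deposited at an unadjusted p below 0.05. None was lower, and the same 5 did not overlap between conditions. Over all tested genes 12% were higher at that p and 8.01% were separated upward, and over the genes at a mean of at least 500 TPM, the level of all 5, the shares were 47.2% and 33.8%. Aldoa, which cuts fructose bisphosphate into trioses, was at 1009, 1033, 1027 and 1059 TPM in controls and 1114, 1119, 1056 and 1033 TPM after exposure, so that the groups overlapped (log2 difference 0.07, unadjusted p = 0.0594). The second Aldoa entry, an upstream gene model on the same strand, held only 1.47 to 2.30 TPM. Aldoc was at 2.18 to 3.68 TPM. Tpi1, which interconverts the trioses, was at 794, 745, 755 and 798 TPM in controls and 806, 814, 791 and 792 TPM after exposure (unadjusted p = 0.094). Tpi1 overlapped through 2 of the exposed dishes.

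Gapdh oxidises the triose phosphate and makes NADH. It was at 4402, 4394, 4287 and 4400 TPM in controls and 4751, 4837, 4584 and 4545 TPM in exposed dishes. The groups did not overlap, and control dish 3 was below the other controls. The means were 4371 ± 55.7 and 4679 ± 138 TPM, a log2 difference of 0.10 ± 0.026 (unadjusted p = 0.00433, adjusted p = 0.142).

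Pgk1 and Pkm encode the kinases of the ATP-yielding steps. Pgk1 was at 865, 817, 842 and 854 TPM in controls and 915, 926, 903 and 892 TPM in exposed dishes, a log2 difference of 0.11 ± 0.024 (adjusted p = 0.122). Pkm was at 1935, 1906, 1922 and 1953 TPM in controls and 2095, 2181, 2070 and 2058 TPM in exposed dishes, a log2 difference of 0.12 ± 0.024 (unadjusted p = 0.000533, adjusted p = 0.122). For both genes the exposed dishes were all above the controls under the deposited scaling. Pklr, the liver and red cell form of pyruvate kinase, was at 83.7, 81.7, 89.8 and 93.9 TPM in controls and 86.8, 90.2, 93.0 and 89.5 TPM after exposure, all inside the control range. Its share of pyruvate kinase was 4.33% ± 0.24 in controls and 4.10% ± 0.16 after exposure (exact permutation p = 0.229).

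Between them, Pgam1 moves the phosphate and enolase removes water. Pgam1 was at 933, 915, 895 and 928 TPM in controls and 938, 988, 951 and 939 TPM after exposure, and the lowest exposed dish lay only just above the highest control (log2 difference 0.06, unadjusted p = 0.0497, adjusted p = 0.32). Eno1, the widespread enolase, was at 985, 944, 949 and 961 TPM in controls and 1060, 1038, 1024 and 1034 TPM in exposed dishes. Its groups were well apart for their spread, with means of 960 ± 18.6 and 1039 ± 15.3 TPM. The log2 difference was 0.11 ± 0.022 (unadjusted p = 0.000525, adjusted p = 0.122), the 48th smallest p of all tested genes. Eno2, the neuronal form, was at 1.11 to 2.87 TPM, and a single control dish at 2.87 TPM held the top of that range.

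Under the other scalings the estimates of this stretch were smaller but stayed above 0. Without the mitochondrial genome, the log2 difference was 0.07 for Gapdh, 0.08 for Pgk1, 0.08 for Eno1, 0.09 for Pkm and 0.03 for Pgam1. Gapdh, Pgk1, Eno1 and Pkm had an unadjusted p below 0.05 in the fit as deposited and in all 17 alternatives, and Pgam1 in 6 of the 18 fits. The dishes of Pgk1 overlapped with upper-quartile scaling, and those of Pgam1 under each of the other scalings.

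Ldha reduces pyruvate to L-lactate. It was at 1082, 1080, 1054 and 1099 TPM in controls and 1152, 1161, 1118 and 1115 TPM after exposure, without overlap (log2 difference 0.08 ± 0.023, adjusted p = 0.175). The unadjusted p of Ldha was 0.0094 as deposited, but 0.0744 with median-of-ratios and 0.068 with upper-quartile scaling. Its dishes overlapped with upper-quartile scaling and without the mitochondrial genome. Slc16a1, the lactate transporter MCT1, was at 37.2, 37.3, 39.6 and 37.1 TPM in controls and 38.3, 39.4, 39.9 and 37.8 TPM after exposure, with overlapping groups (unadjusted p = 0.302). Slc16a3 (MCT4, the exporter of highly glycolytic cells) made up under 1% of both transporters in either group on average.

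Ldhd, a mitochondrial flavoenzyme that oxidises D-lactate to pyruvate, was the member with the smallest p, and its estimate had the opposite sign to that of Ldha. It was at 22.9, 21.9, 21.4 and 21.9 TPM in controls and 18.5, 19.2, 18.2 and 18.6 TPM in exposed dishes. The highest exposed dish lay below the lowest control. The means were 22.0 ± 0.65 and 18.6 ± 0.39 TPM, a log2 difference of -0.23 ± 0.037 (95% interval -0.32 to -0.15, unadjusted p = 0.000117, adjusted p = 0.122). Its p ranked 8 among 12122 genes, its estimate was -0.26 to -0.21 over all alternatives, and its unadjusted p was below 0.05 in all 18 fits.

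**Figure D4:**
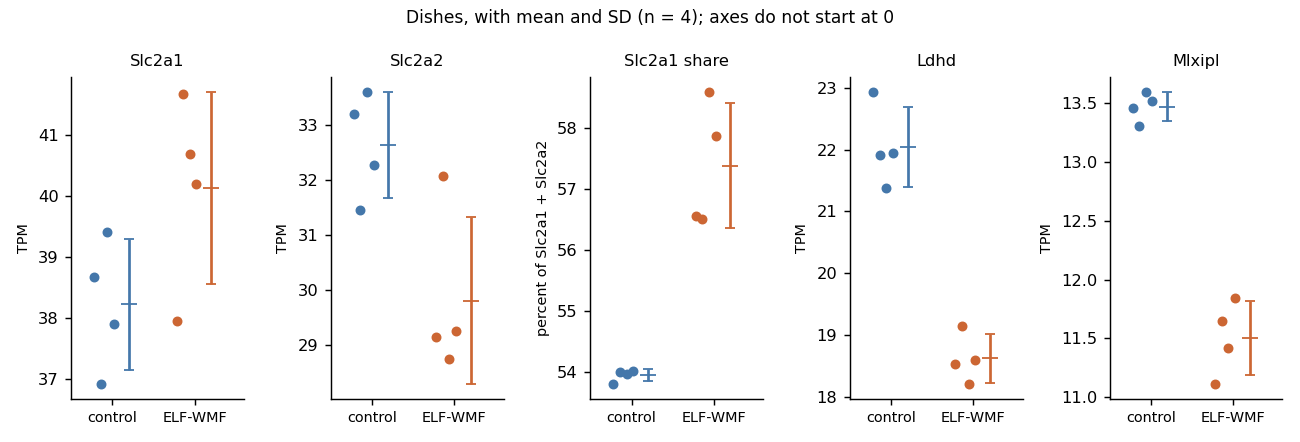
Slc2a1, Slc2a2, the share of Slc2a1 in the sum of both transporters, Ldhd, and the glucose-responsive factor gene Mlxipl in every dish, in TPM or percent, with the mean and SD of 4 dishes beside the points. The axes do not start at 0. The exposed dishes lie apart from the controls for the share (56.5 to 58.6% against 53.8 to 54.0%), Ldhd and Mlxipl, and overlap with them for each transporter gene alone.

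The oxidative pentose phosphate arm starts with G6pdx, glucose-6-phosphate dehydrogenase. It was at 37.6, 37.7, 36.5 and 38.3 TPM in controls and 37.1, 41.7, 40.1 and 37.4 TPM after exposure, with overlap (unadjusted p = 0.223). H6pd, which runs the same reactions inside the endoplasmic reticulum, was far higher, at 195 ± 6.72 and 195 ± 12.5 TPM. The estimate for H6pd was below 0.01 as deposited and below 0 under the other 3 scalings. Pgls, the lactonase, was at 118 ± 5.82 TPM in controls and 123 ± 7.15 TPM in exposed dishes. Pgd, the other NADPH-making step, was at 138, 137, 134 and 137 TPM in controls and 146, 149, 142 and 143 TPM in exposed dishes. Pgd was the only gene of this arm without overlap (log2 difference 0.09 ± 0.026, adjusted p = 0.166).

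In the non-oxidative arm, Tkt (transketolase), which moves carbon pairs between sugars, was at 617, 617, 593 and 617 TPM in controls and 648, 677, 631 and 637 TPM after exposure, without overlap (log2 difference 0.09 ± 0.028, adjusted p = 0.188). Taldo1, the transaldolase, was at 393, 392, 375 and 398 TPM in controls and 398, 417, 405 and 396 TPM in exposed dishes, with overlap. The pentose isomerase Rpia was low, at 14.6 to 18.3 TPM, and the epimerase Rpe was at 84.6 to 92.4 TPM. All 8 genes of the branch had estimates above 0 as deposited, between 0.00 and 0.09, and 2 of the 8 were higher at an unadjusted p below 0.05 (12% of all tested genes, and 47.2% of those at the level of Tkt). Both of these, Pgd and Tkt, kept that in all 18 fits. The dishes of Tkt overlapped, however, with median-of-ratios and with upper-quartile scaling.

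Isoform shares were compared in 9 families. Besides the glucose transporters, none had an exact permutation p below 0.05: Pfkfb3 in its family was at 22.1% and 23.2% (p = 0.114), Eno2 of enolase at 0.19% and 0.12% (p = 0.114), Aldoc of aldolase at 0.27% and 0.26% (p = 0.743), and Slc16a3 of the lactate transporters at 0.95% and 0.74% (p = 0.486). Ldhb contributed nothing to the L-lactate dehydrogenase transcripts, so that its share was 0 in every dish. Its test could find no difference, yet that family was counted among the 9 in the adjustment. In both conditions the widespread form Pkm led over the liver form Pklr at pyruvate kinase.

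Gapdh and Eno1 have near-identical copies elsewhere in the mouse genome, and this bears on their values. A search of the GENCODE M21 transcripts (GRCm38) at 95% identity over 80% of the copy found 85 copies of Gapdh, 59 of them above 0 TPM in some dish, and 4 of Eno1. The processed pseudogene Gm13394 (chr2:28933610-28934609, minus strand) alone was given 2067 ± 55.1 TPM in controls and 2219 ± 26.8 TPM after exposure. Over its 1000 bases it differs from the Gapdh coding sequence by A346C, counted from 1 at the A of the start codon, with the base of Gapdh first. The pseudogene Gm4735 (chr2:80837141-80838442, plus strand) was given 342 ± 6.39 and 363 ± 10.6 TPM, and differs from Eno1 at 5 of 1302 bases (T726C, T816G, A1056G, T1224C and C1233T). Read pairs that lie wholly within the stretch shared by gene and copy, and cross no such base, cannot be assigned to one or the other. The following lines show the 41 coding bases around A346C and around T726C in each gene and its copy, 5′ to 3′ on the coding strand, with the differing base in capitals. Gapdh lies here in a coding exon at chr6:125162996-125163036 (minus strand) and its copy at chr2:28934244-28934284 (minus strand). Eno1 lies in a coding exon at chr4:150246608-150246648 (plus strand) and its copy at chr2:80837846-80837886 (plus strand).
Gapdh: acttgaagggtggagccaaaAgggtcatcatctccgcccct
Gm13394: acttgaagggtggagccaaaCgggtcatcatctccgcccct
Eno1: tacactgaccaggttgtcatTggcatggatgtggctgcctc
Gm4735: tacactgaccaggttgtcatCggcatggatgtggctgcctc

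The split between each gene and its copies was alike in both conditions. Gm13394 was at 2072, 1993, 2079 and 2126 TPM in controls and 2188, 2249, 2231 and 2208 TPM in exposed dishes, and its share of Gapdh plus Gm13394 was 32.1% ± 0.67 in controls and 32.2% ± 0.63 after exposure. All copies together were 34.2% and 34.3% of the Gapdh total. For Eno1, Gm4735 and the retrogene Eno1b (307 ± 3.39 and 331 ± 12.3 TPM) were together 40.3% ± 0.63 of the total in controls and 40.1% ± 0.46 after exposure. With the copies added, Gapdh was at 6645 ± 74.4 TPM in controls and 7124 ± 150 TPM after exposure (log2 difference 0.10 ± 0.024, adjusted p = 0.124), and Eno1 had a log2 difference of 0.11 ± 0.022 (adjusted p = 0.121). These differences were close to those of the genes alone, 0.10 and 0.11. For Gpi1, Tpi1, Pgk1, Pgam1, Pkm and Ldha, copies held at most 1.20% of the total.

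**Figure D5:**
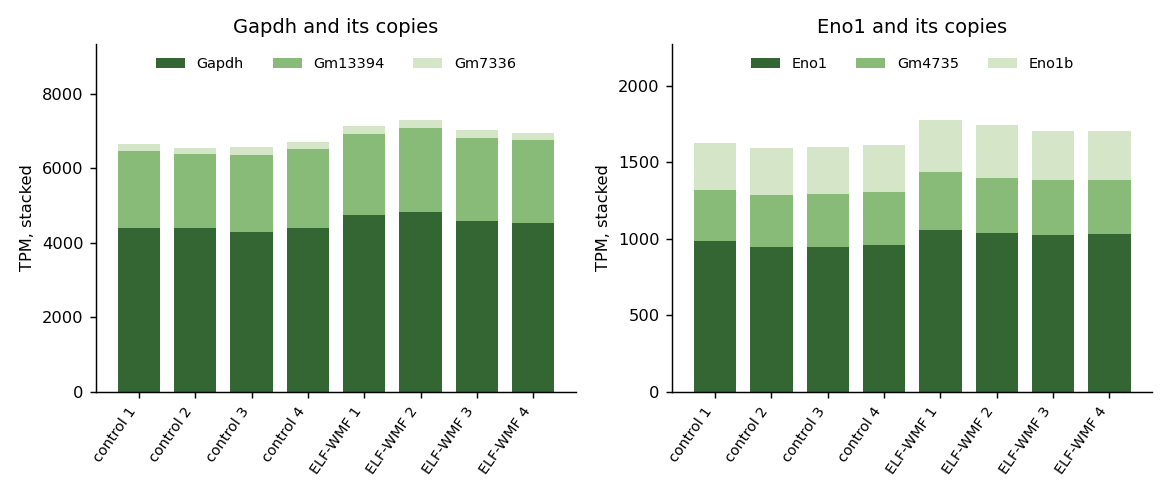
Stacked TPM of Gapdh with its pseudogenes Gm13394 and Gm7336 (left) and of Eno1 with Gm4735 and Eno1b (right) in each of 4 control and 4 exposed dishes. The proportions of each stack look alike in all dishes, and all 4 exposed stacks are taller than all 4 control stacks in both panels.

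The promoters of several members share the core ACGTG, which is the hypoxia-response element core and also part of the E-box CACGTG that Myc and USF proteins can bind. Both strands were searched in windows of 250 bases before to 50 bases after each RefSeq start (GRCm38.p6), and a CACGTG also counts as ACGTG. The core was in at least 1 window of 17 of the 35 members (48.6%), of 30.0% of the 9055 tested genes that had a window, and in 19.6% of all 32851 windows. The full CACGTG was in 6 members (17.1%), and in 12.1% of the tested genes. Of the 9 members that were higher without overlap, Gapdh, Pgk1, Pgam1, Pkm and Ldha held the core and Gpi1, Eno1, Pgd and Tkt did not. Ldhd, which was lower, held a CACGTG as well. Only upstream sequences with the core were picked to be shown. Those of Ldha and Pgk1 come from members whose exposed dishes were all higher, and that of Ldhd from the member whose exposed dishes were all lower. They are RefSeq sequences, 5′ to 3′ on the strand of the gene and without bases that GENCODE counts as exon, with the core or E-box in capitals. Ldha is at chr7:46845554-46845803 (plus strand), Pgk1 at chrX:106186850-106187099 (plus strand) and Ldhd at chr8:111630375-111630586 (minus strand).
Ldha: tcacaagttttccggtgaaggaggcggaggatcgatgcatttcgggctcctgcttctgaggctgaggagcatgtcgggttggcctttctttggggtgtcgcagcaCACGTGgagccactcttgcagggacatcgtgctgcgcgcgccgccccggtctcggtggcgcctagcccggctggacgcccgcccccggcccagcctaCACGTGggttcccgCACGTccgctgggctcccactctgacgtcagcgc
Pgk1: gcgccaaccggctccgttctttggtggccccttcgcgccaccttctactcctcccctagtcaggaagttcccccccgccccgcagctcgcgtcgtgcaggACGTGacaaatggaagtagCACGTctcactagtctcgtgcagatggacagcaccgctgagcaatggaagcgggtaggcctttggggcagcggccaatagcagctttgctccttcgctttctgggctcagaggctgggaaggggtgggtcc
Ldhd: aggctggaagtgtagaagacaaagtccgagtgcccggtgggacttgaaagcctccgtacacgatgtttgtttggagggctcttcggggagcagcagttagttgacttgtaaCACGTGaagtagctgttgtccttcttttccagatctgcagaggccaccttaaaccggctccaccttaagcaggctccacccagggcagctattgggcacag
The Ldha stretch holds 2 E-boxes and a further core, Pgk1 has 2 cores in opposite orientation, and Ldhd has 1 E-box. A match is a description of letters only.

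Genes around the pathway were counted from 5 lists of 101 symbols, of which 100 were found. Among 22 other isoforms of the same steps, 6 were tested. At an unadjusted p below 0.05 only Eno1b was higher and none was lower (background 12% and 3.65%). Its log2 difference was 0.11 (limma, unadjusted p = 0.00347). Eno1b is counted above among the copies of Eno1, at 99.5% identity, so its value is not independent of that of Eno1. Among the others tested, Eno3 was at 38.3 TPM in controls, Slc2a8 at 6.46, Slc2a9 at 3.77 and Slc16a7 at 2.31 TPM. Pgk2, Ldhc, Gapdhs, Slc2a10 and Tktl2 were listed at 0 in all dishes.

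Among helpers and regulators of glycolysis, 2 of 24 tested genes were higher at an unadjusted p below 0.05 and 1 was lower (background 12% and 3.65%). The lower one was Mlxipl, which encodes ChREBP, the factor that turns on glycolytic and lipogenic genes when carbohydrate is plentiful. It was at 13.5, 13.3, 13.6 and 13.5 TPM in controls and 11.1, 11.7, 11.4 and 11.8 TPM in exposed dishes. The groups did not overlap (log2 difference -0.21, unadjusted p = 0.000441, adjusted p = 0.122), and the estimate was -0.24 to -0.20 over all alternatives. Txnip, a known target of ChREBP, was at 3.39 to 3.94 TPM in controls and 3.07 to 3.71 TPM after exposure (unadjusted p = 0.136). Tigar, a phosphatase that lowers fructose 2,6-bisphosphate and steers sugar to the pentose branch, was at 29.5, 30.5, 27.3 and 30.0 TPM in controls and 33.1, 33.2, 32.9 and 32.0 TPM in exposed dishes, without overlap (log2 difference 0.16, adjusted p = 0.134). Prps1, which makes the ribose donor for nucleotides, had a log2 difference of 0.09 (adjusted p = 0.209) with overlapping dishes, and its unadjusted p was 0.0549 to 0.0897 under the other 3 scalings.

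Of the genes for gluconeogenesis and glycogen, 11 of 17 were tested and none had an unadjusted p below 0.05 in either direction (adjusted: 0 with limma). Among 13 tested genes that bring in fructose, galactose and other sugars, 5 were higher and none lower as deposited (background 12% and 3.65%), namely Pmm1, Galk1, Pmm2, Akr1b8 and Akr1b3, with log2 differences of 0.13, 0.08, 0.10, 0.12 and 0.09. Pmm1 (a phosphomannomutase) was the only one of them that kept an unadjusted p below 0.05 under all 3 other scalings, and none had an adjusted p below 0.05. Of 19 tested genes for the hypoxia-inducible factor and its classic targets, 1 was higher and 2 were lower as deposited (background 12% and 3.65%). With median-of-ratios scaling, upper-quartile scaling and without the mitochondrial genome, 3 were lower each time. The shares of all tested genes were 5.51, 4.76 and 5.57%. None was higher with median-of-ratios scaling (6.8% of all tested genes) or without the mitochondrial genome (5.7%). Hif1a, the higher one, had a log2 difference of 0.08 (unadjusted p = 0.0451) and an unadjusted p below 0.05 in 9 of the 18 fits, and Vegfa and Kdm3a had differences of -0.18 and -0.17 (unadjusted p = 0.0135 and 0.0136). The median over these 19 genes was -0.02, beside 0.05 over the members.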

How the data were processed

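RNA from 4 control and 4 exposed dishes was measured by RNA sequencing. The authors deposited 1 table of gene-level TPM per dish. The submitters' processing notes name Trimmomatic 0.39, STAR 2.7.4a, RSEM 1.3.3 and the mm10 build, without their roles, and the annotation is not given in the sources used here. Of the 55401 gene identifiers, 55141 matched GENCODE M21 (GRCm38). TPM holds no read depth, so no count test was run and the counting precision is unknown.

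Genes reaching 1 TPM in 4 or more dishes were tested with limma 3.58.1 (lmFit, eBayes with trend) in R 4.3.3 on log2(TPM + 1). All p-values called unadjusted or adjusted come from that fit, unless an exact permutation test is named. Adjustment was by Benjamini-Hochberg over all 12122 tested genes, with 0.05 as the threshold. A log2 difference on this scale understates the change of genes near 1 TPM. For shares of isoforms, an exact two-sided permutation test went through all 70 ways to assign the dishes. On data simulated for exposed against control dishes (12040 genes), a log2 change of 0.1 was recovered in 45.0% of changed genes at an unadjusted p below 0.05 and in 0% after adjustment. For a change of 0.25 (12020 genes) it was 85.4% and 50%, and for 0.5 (12030 genes) 97.9% and 84.0%.

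The members and the lists of related genes were chosen with earlier results of these data known. All members are named, with values in each dish for those that had an unadjusted p below 0.05, did not overlap, or led their family. Of the related genes, those with an unadjusted p below 0.05 or without overlap (at most 5 per list) and the other isoforms at 1 TPM or more are named. Txnip and the genes at 0 were named after their values were seen. Some genes of the related lists are counted but not reported here by name. Near-identical copies were found with BLAST 2.17.0 (megablast) and aligned with edlib 1.3.9. Alternatives were 3 other scalings (median of ratios, upper quartile, and TPM rescaled without the 37 genes of the mitochondrial genome), pseudocounts of 0.1 and 0.5, other filters, copies added to their gene, the replicate number as a block, and leaving out each dish. Replicate numbers did not pair the dishes.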

Additional observations from a re-analysis of the deposited data

Results flagged for a closer look

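In groups of 4 dishes, a dish whose gap to its nearest neighbour was large for the range of its group was marked by Dixon's test at the 95% level. Of 86 groups of members and isoform shares, 5 were marked, where chance gives about 4.3. Slc2a2 was at 32.07 TPM in exposed dish 2 and at 28.75 to 29.26 TPM in the other exposed dishes. Without exposed dish 2 the groups of Slc2a2 did not overlap, and the log2 difference was -0.16 with limma. Control dish 3 was marked 3 times: Gapdh was at 4287 TPM there and at 4394 to 4402 TPM in the other controls, Tkt at 592.6 TPM beside 616.5 to 617.2 TPM, and Slc16a1 at 39.61 TPM beside 37.14 to 37.34 TPM. That dish also had the highest share of mitochondrial-genome transcripts among the controls, 9.42%, and its part in these values was not tested. The share of Pfkfb3 in its family was 24.6% in exposed dish 3 and 22.6 to 22.9% in the other exposed dishes.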

How the results depend on the processing

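Across median-of-ratios scaling, upper-quartile scaling, rescaling without the mitochondrial genome and a filter that asked for 1 TPM in all dishes, 1 gene of the table was called with limma in each, and it was no member. Leaving out 1 dish at a time gave 0 to 6 called genes, with 6 without exposed dish 2, and no member. Genes at an unadjusted p below 0.05 numbered 823 higher and 667 lower with median-of-ratios scaling, 696 and 680 without the mitochondrial genome, and 832 lower with no filter. Members with every exposed dish above the controls numbered 4 with upper-quartile scaling (5.47% of all tested genes) and 9 to 13 without single dishes. Members with every exposed dish below numbered 3 under all 3 scalings (Slc2a2, Pfkp and Ldhd) and 1 to 3 without single dishes, with 3 without control dish 2 or exposed dish 2 and 2 without control dish 1. Groups separate more easily with 1 dish fewer, and the share of all tested genes was not counted in those fits. The counts without single dishes therefore cannot be set against those with all dishes. Estimates with a change of sign were near 0 throughout: with median-of-ratios scaling Pfkm was at -0.0068, Pfkfb1 at -0.0039 and H6pd at -0.021, with upper-quartile scaling H6pd was at -0.011, and without the mitochondrial genome Pfkm was at -0.014, Pfkfb1 at -0.010, Aldoc at -0.0052 and H6pd at -0.028. The cause was not tested. Without single dishes, the log2 difference ranged from -0.024 to 0.048 for Pfkm, -0.063 to 0.074 for Pfkfb1, -0.066 to 0.0097 for Pfkfb2, -0.10 to 0.035 for the second Aldoa entry (Aldoa_ENSMUSG00000114515), -0.066 to 0.12 for Aldoc, -0.025 to 0.045 for H6pd and -0.017 to 0.074 for Rpia, and the share difference from -0.15 to 0.26 percentage points for hexokinase and from -0.034 to 0.016 for aldolase.

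Dishes with the same replicate number did not deviate together (r of deviations from the group means -0.042 to 0.026 over 4 pairs, and 0 of 4 control dishes was closest to its own number). With the replicate number as a block, 1430 genes were higher and 459 lower at an unadjusted p below 0.05, 8 members were higher and 2 lower, and 0 genes were called. The numbers give no pairing, and this fit is listed for completeness. Tests that need read counts were not run, because the files hold TPM. Depth is unknown, so that values of the members below 3 TPM (Hk2, Pfkfb4, Eno2, Aldoc in part) cannot be given a counting error.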
